A study of Mus musculus with 48 samples.

Results

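The Mature elements labelled asc are 321 of the 11709 DNA elements assayed in a massively parallel reporter assay of the embryonic mouse cortex. They were chosen by name alone: the class Mature in the deposited table, whose element names read Mature_neurons, and the tag asc in the name. The rule uses no measured value. The class holds 2763 elements under 3 tags, 321 asc, 1129 desc and 1313 unc, and the table also holds 996 scrambled control sequences. The sources used here do not state what was measured to give the tags, so they are used as names, and asc is read as ascending from the word only. The table gives neither sequence nor position for these elements, so none is printed, and each is called by the number in its name.

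In such an assay, each DNA element is placed in a reporter plasmid, and the RNA that it drives is set against the plasmid DNA recovered from the same cells. The plasmids were electroporated in utero into the somatosensory cortex of C57BL/6JRj embryos on 1 of the embryonic days (E) 12 to 16, and the tissue was taken 24 h after that, from E13 to E17. Cells were fixed, stained and sorted by flow cytometry: neural stem cells (NSC) by Pax6, intermediate progenitors (IPC) by Tbr2. The 10 groups of cell type and age held 2 biological samples each at E13, E16 and E17 and 3 each at E14 and E15, 24 in all, from which 48 libraries of DNA or RNA were made. All groups received the assay's plasmids and no other treatment is given in the labels. No group of sorted neurons is among them, so elements named for mature neurons were read here in progenitors.

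Neural stem cells of the cortex line the ventricle, divide, and produce neurons either directly or through intermediate progenitors. Pax6 is a transcription factor of the stem cells and Tbr2 (Eomes) one of the intermediate progenitors. Enhancers are short stretches of DNA that bind transcription factors and raise the transcription of a gene. Many enhancers used by differentiated neurons lie in closed chromatin in progenitors, but a reporter plasmid carries only the short element and not its chromosomal surroundings. A scrambled control has the letters of a sequence in another order and gives the level at which an element without a designed function reads.

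The authors deposited 1 activity value per element and group, with the biological samples already combined. The spread between animals is therefore not known, and neither are the reads behind a value. The scrambled median differed between groups from 0.164 in NSC at E13 to 2.37 in NSC at E17. Each value was therefore divided by the scrambled median of its group, so that a ratio of 1 is the level of the median control. Values on the log2 scale are log2 of the ratio plus a pseudocount of 0.1, minus the mean of the scrambled controls. They understate differences among ratios near or under 0.1.

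The median Mature asc element had about the activity of the median scrambled control. Its ratio in NSC, from E13 to E17 in turn, was 1.09, 1.08, 0.890, 0.888 and 0.924. In IPC the medians in the same order were 0.947, 0.980, 0.967, 0.941 and 0.822. The median was thus above that of the controls in 2 of 10 groups, the early NSC groups, and below it in 8. The lowest median, in IPC at E17, belonged to a group in which 138 of 312 elements (44.2%) were above the scrambled median. The highest share above it was 54.4% (172 of 316), in NSC at E14.

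The desc median ran from 0.902 (NSC at E13) to 1.05 (IPC at E16 and E17), and the unc median from 0.963 (IPC at E16) to 1.06 (IPC at E17). The asc median was below the desc median in 8 of 10 groups and below the unc median in 8 of 10, again with the 2 early NSC groups as the exceptions. These are differences between medians of pooled values. No test was made of them, since elements are not replicates of a condition.

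**Figure D1:**
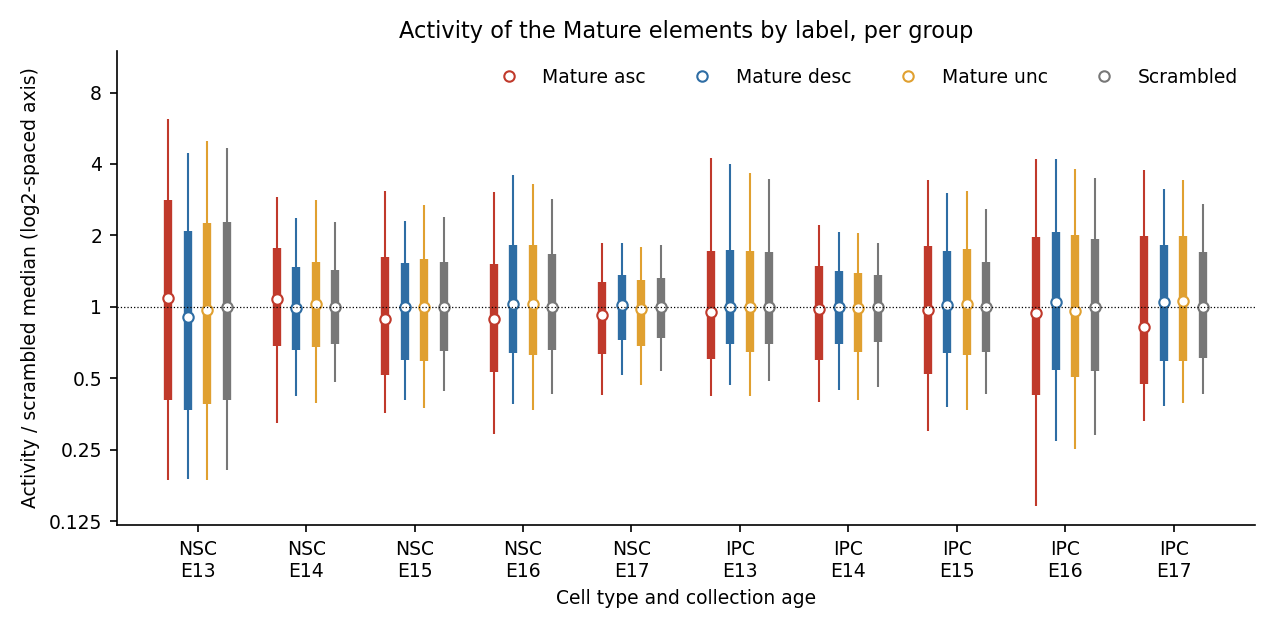
Activity divided by the scrambled median (log2-spaced axis) in the 10 groups, for Mature asc, desc and unc elements and scrambled controls. Points are medians, thick bars run from the 25th to the 75th percentile and thin bars from the 10th to the 90th, over elements. The asc medians lie between 0.822 and 1.09, and the thin asc bars start lower than those of the controls and end higher in all 10 groups.

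The asc elements scattered more widely than the controls, as did the desc and unc elements by a smaller margin. Their 90th percentile was above that of the scrambled controls in 10 of 10 groups, and their 10th percentile was below it in 10 of 10. Against all elements that are not scrambled, the 10th percentile was lower in 10 of 10 groups, but the 90th was higher in only 5. In NSC at E13 the 10th and 90th percentiles were 0.186 and 6.18, against 0.205 and 4.68 for the controls. In IPC at E17 they were 0.329 and 3.78, against 0.431 and 2.71. In IPC at E16 the lower end was 0.145 against 0.288. At the opposite end, NSC at E17 had the narrowest range, from 0.426 to 1.86 against 0.536 to 1.83.

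The standard deviation (SD) of log2 activity over elements gives the same picture in 1 value per group. From E13 to E17 in NSC it was 1.86, 1.16, 1.26, 1.42 and 0.81, against 1.60, 0.89, 0.94, 1.07 and 0.67 for the scrambled controls. In IPC over the same ages it was 1.39, 1.06, 1.33, 1.60 and 1.37, against 1.13, 0.77, 1.03, 1.27 and 0.99. The asc SD was above that of the controls, of desc and of unc elements in 10 of 10 groups. The groups kept a like order whichever set was read: NSC at E13 and IPC at E16 were the widest for asc elements and for controls, and NSC at E17 the narrowest.

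Missing values went with the spread. An asc element had no value in 0.623% (NSC at E17) to 8.10% (IPC at E16) of cases, and the share missing was above that of desc and of unc elements in 9 of 10 groups and above that of the controls in 10 of 10. All 10 values were present for 272 of 321 asc elements (84.7%), 91.2% of desc, 88.3% of unc and 95.9% of scrambled elements. Another 32 asc elements lacked 1 or 2 values and 17 lacked 3 or more, at most 8. The 49 incomplete asc elements also scattered more where they did have a value, with a median SD over the groups of 1.93 against 1.27 for the 272 complete ones. Among complete elements alone, the asc SD still exceeded that of desc, unc and scrambled elements in 10 of 10 groups (medians over the groups of 1.27, 1.07, 1.10 and 0.97). The reads or barcodes per element were not used here, and the part of element coverage in the wider scatter was not tested.

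**Figure D2:**
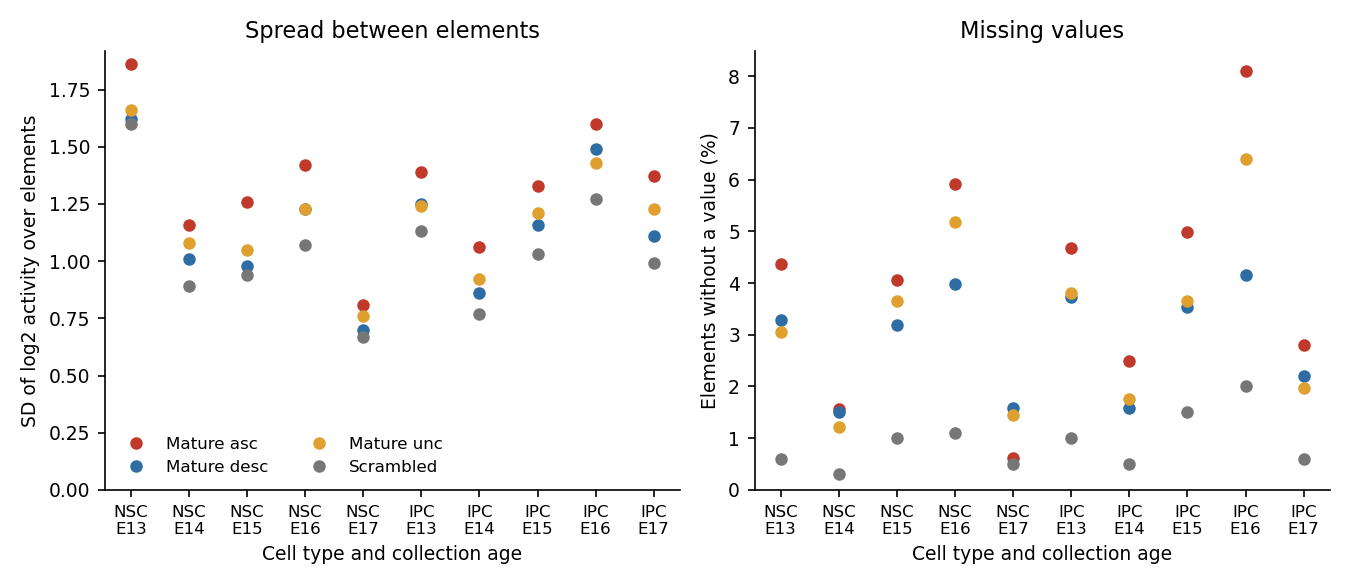
Left, the SD of log2 activity over elements in each group. Right, the share of elements without a value (%). Each point is 1 set of elements in 1 group. The asc points are the highest in all 10 groups on the left and in 9 of 10 on the right, where NSC at E17 is the exception with 0.623%.

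To ask whether single elements stood above or below the controls, limma was fitted to all elements with a value at 4 or more of the 5 ages in each cell type, which left 301 of the 321 asc elements among 10364 elements that are not scrambled. The fit gives each element a mean and a straight line over age in each cell type. Its error is the scatter of the 5 ages around that line, not the spread between animals, and p-values were Benjamini-Hochberg adjusted over the 10364 elements. No asc element had a limma adjusted p under 0.05 for its mean in NSC (lowest adjusted p 0.144) or in IPC (0.113). In NSC no element of any class passed (0%). In IPC 112 of 10364 did (1.08%), of which 3 were Mature unc elements and none Mature desc.

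At an unadjusted p under 0.05 in the same limma fit, 9 of 301 asc elements (2.99%) were higher than the controls in NSC and 14 (4.65%) lower. Over all elements that are not scrambled the shares were 8.11% higher and 2.37% lower, and among scrambled controls 3.05% and 3.46%. In IPC, 13 asc elements (4.32%) were higher and 11 (3.65%) lower, against 9.29% and 2.71% over all elements and 3.16% and 3.46% of controls. The asc shares were thus nearer to those of the scrambled sequences than to those of all elements, among which more were higher than lower. The median estimated mean over the 301 asc elements was -0.02 in NSC and -0.02 in IPC on the log2 scale, beside 0.10 in both over all elements that are not scrambled. The asc median of these estimated means minus that of the controls was -0.004 in NSC and -0.032 in IPC. On the authors' MAD score the sign of this difference turned, to 0.176 units in NSC and 0.203 in IPC. Both concern means over ages, not the medians per group given above. The median standard error of a single asc element's mean was 0.45, so a mean of about the size seen over all elements could not be told from 0 for 1 element.

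The 10 complete elements with the highest means were above the scrambled median in 6 to 9 of the 10 groups, and some of them had much higher ratios in 1 to 3 groups than in the rest. Element 2095 had the highest mean over the 10 groups, 1.34 on the log2 scale. Its ratio to the scrambled median in NSC was 63.7 at E13 and then 1.30, 0.990, 2.44 and 0.945 up to E17. In IPC its ratio was 0.999 at E13, then 2.09, 12.1, 2.86 and 2.01. Without the E13 groups its mean was 0.99, and the authors' adjusted p, from their deposited table, was under 0.05 in 2 of the 10 groups.

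Element 2176 came next, with a mean of 1.21, and was more even. From E13 to E17, its ratios were 2.71, 1.13, 5.65, 1.43 and 2.03 in NSC. Those in IPC were 2.87, 3.94, 8.97, 0.884 and 2.69. It was above the scrambled median in 9 of 10 groups, and its estimated mean in IPC was 1.42 with a standard error of 0.47 (limma adjusted p = 0.223).

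Element 2430 was also above the scrambled median in 9 of 10 groups, with a mean of 1.14. In age order its ratio in NSC was 9.20, 1.76, 2.79, 3.01 and 1.86, and in IPC 0.992, 2.13, 1.98, 4.81 and 1.44. It had a mean of 1.45 in NSC with a standard error of 0.39 (limma adjusted p = 0.239). Element 2182 was the remaining one of the highest 10 with 9 groups above the scrambled median. It read 2.83, 1.61, 2.69, 0.881 and 4.35 in the NSC groups. The IPC ratios were 2.36, 3.48, 2.49, 4.33 and 1.11, a range with no single outlying group.

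Element 2458, with a mean of 1.08, instead rested on a few groups. It reached 17.5 in NSC at E16 and 9.42 in IPC at E15, but stood at 0.256 in IPC at E17 and 0.914 in IPC at E13. Element 2593 had ratios of 25.4 in NSC at E13, 11.2 in NSC at E16 and 12.2 in IPC at E16, and was between 0.537 and 2.14 in the other 7 groups. Element 2323 reached 12.9 at E14 and 25.6 at E15 in NSC, with 4.23 at E13, and no more than 1.90 elsewhere. These 3 thus combined high values in some groups with values under the control level in others. The last 3 of the highest 10, 2352, 1601 and 1193, had means of 0.84, 0.83 and 0.82 and were above the scrambled median in 8, 7 and 7 groups.

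The lowest 5 were below the controls in most groups, and none of them was called by the authors in any group. Element 2653 had the lowest mean, -1.07, with ratios of 0.00752 in NSC at E16 and 0.0169 in IPC at E16, but 2.13 and 2.41 in IPC at E14 and E15. Element 2082 was the most even of them. With age its ratio in NSC was 0.398, 0.748, 0.571, 1.18 and 0.795, and in IPC 0.575, 0.731, 0.292, 0.265 and 0.396. Its mean in IPC, -1.15 with a standard error of 0.30, had the lowest limma adjusted p of an asc element for IPC (0.113). Elements 2481, 1595 and 1636 had means of -0.89, -0.87 and -0.87.

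Set beside the controls, the tails of the means were slightly fuller on both sides. The limits that leave 2.5% of the scrambled means on either side were -0.74 and 0.73. Of the 272 complete asc elements, 12 (4.41%) were above the upper limit and 9 (3.31%) below the lower. The shares were 3.69% and 2.43% for desc elements, 4.48% and 2.41% for unc elements, and 9.74% and 1.74% for all elements that are not scrambled. The highest scrambled mean was 1.09, which 3 asc elements (2095, 2176 and 2430) exceeded, and the lowest, -1.25, was under that of every asc element. Passing 1.09 was not particular to asc. The highest mean was 1.34 for asc, 1.61 for desc, 1.38 for unc and 2.64 for all elements that are not scrambled. The shares of those sets above 1.09 were not counted.

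**Figure D3:**
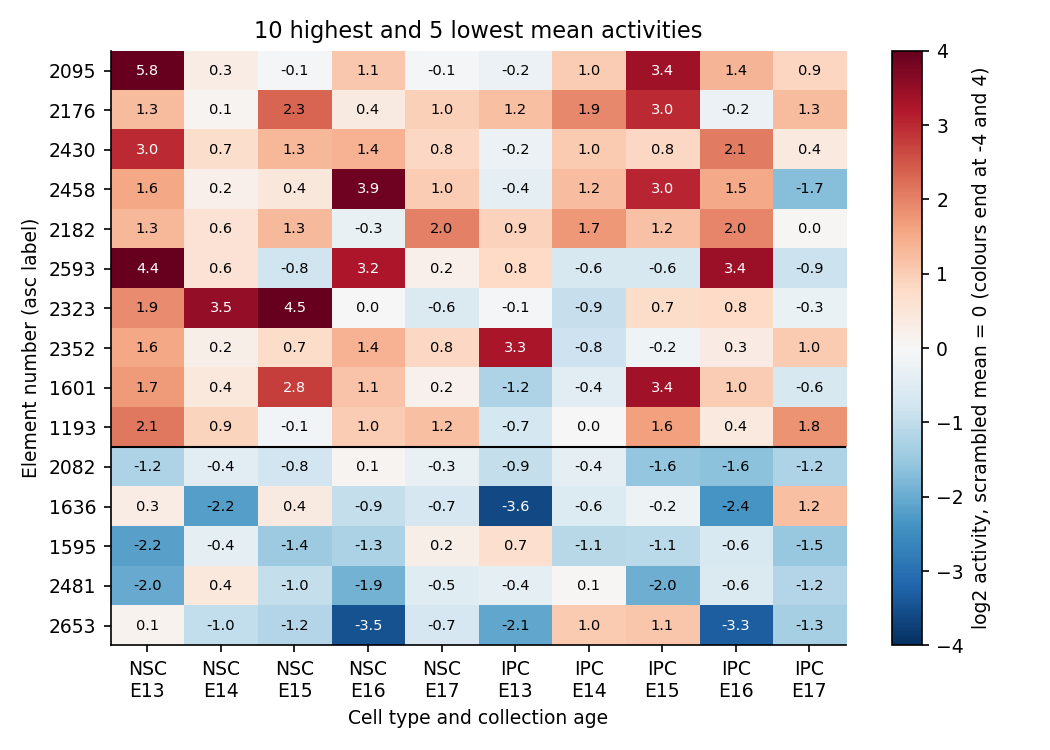
Log2 activity (scrambled mean at 0) of the 10 complete asc elements with the highest mean over the groups and, below the line, the 5 with the lowest. Columns are the 10 groups, and colours end at -4 and 4. Some rows hold 1 to 3 groups much stronger than the rest, as in element 2095 with 5.77 in NSC at E13. Others, such as 2176, 2182 and 2082, are more even.

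Values of an element in one group said little about its value in another. Over the 45 pairs of groups, Spearman's rho across asc elements ran from -0.11 to 0.20 with a median of 0.05. It ran from -0.05 to 0.19 with a median of 0.03 across scrambled controls. The mean over the 5 NSC groups and that over the 5 IPC groups correlated at 0.18 across asc elements, 0.06 across controls and 0.21 across all elements that are not scrambled. These are descriptions across elements, which share the plasmid pool and the groups' depth. Within a complete asc element the median SD over the 10 groups was 1.09, and the SD of the element means was 0.43.

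The authors scored each value by its distance above the scrambled median in units of the controls' scaled median absolute deviation, and adjusted the upper-tail p within each group. In the authors' deposited table, of 307 asc elements, 64 had an adjusted p under 0.05 in NSC at E13 (20.8%), beside 15.3% of all elements that are not scrambled. The difference between these shares was not tested in any group, since elements are not replicates of a condition. In the later NSC groups the asc share was 13.9% at E14 (all elements 14.7%), 14.3% at E15 (all elements 12.5%), 14.2% at E16 (all elements 19.4%) and 8.46% at E17 (all elements 13%). In IPC it was 18.0% at E13 (all elements 19.6%), 10.2% at E14 (all elements 11.3%), 15.7% at E15 (all elements 14.9%), 14.9% at E16 (all elements 16.1%) and 17.6% at E17 (all elements 18.7%). The asc share was above that of all elements in 3 of 10 groups and below it in 7.

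The same threshold also took in many controls. In the authors' deposited table, 13.3%, 9.77%, 8.11%, 12.9% and 6.16% of scrambled controls passed in NSC from E13 to E17, and 15.7%, 6.66%, 11.1%, 12.4% and 10.3% in IPC. The asc share was above the controls' in 10 of 10 groups, above the desc share in 9 and above the unc share in 8. The gap to the controls was largest in NSC at E13 (20.8% against 13.3%) and in IPC at E17 (17.6% against 10.3%). In both groups the asc elements also had the wider scatter described above, on the low side as well as the high. In IPC at E17, 8.01% of asc elements were above the limit that 2.5% of controls exceed, and 5.13% below the corresponding lower limit, beside 6.85% and 3.21% of all elements that are not scrambled. Over the 10 groups, the asc share above the upper limit exceeded that of all elements in 7, and the asc share below the lower limit did so in 10. More asc elements were below the lower limit than above the upper in NSC at E14, E16 and E17 (8.54%, 7.28% and 6.27% against 4.43%, 3.31% and 4.39%) and in IPC at E13 and E16 (6.86% and 10.8% against 5.56% and 2.71%).

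**Figure D4:**
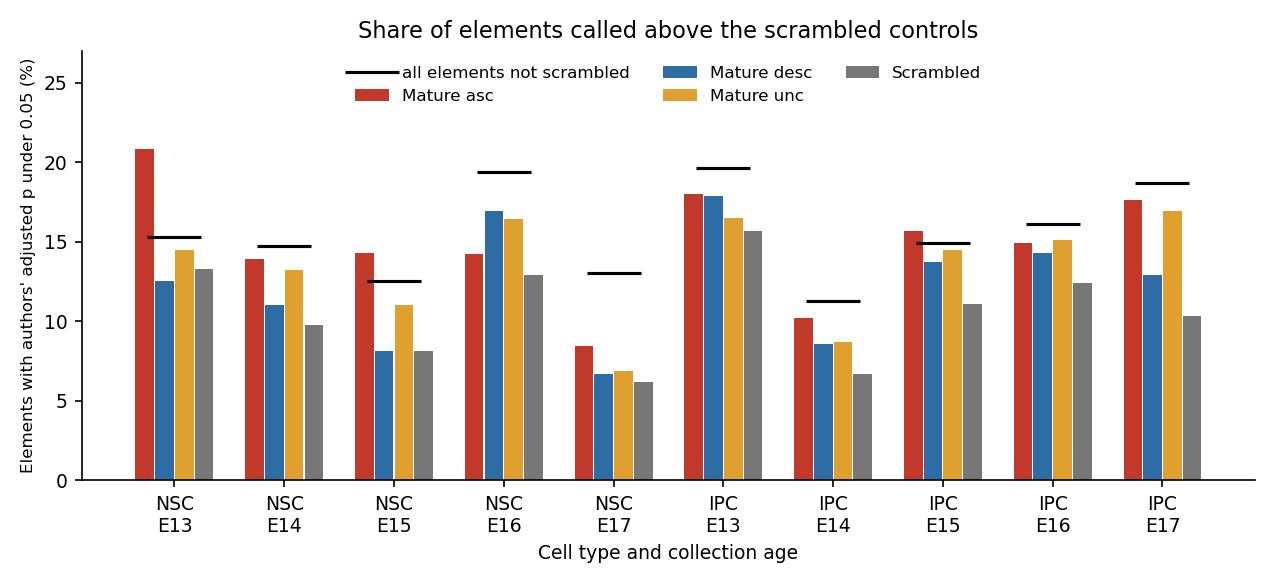
Share of elements (%) with an authors' adjusted p under 0.05 in each group, from the deposited table. Bars are Mature asc, desc, unc and scrambled elements, and black lines all elements that are not scrambled. The asc bar is above the grey bar of the controls in all 10 groups and above the black line in 3.

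Calls of asc elements were seldom repeated. Of the 321 elements, 9 (2.80%) were called in at least 3 of the 5 NSC groups. The share was 4.66% over all elements that are not scrambled and 1.31% among controls. In at least 3 of the 5 IPC groups 6 were called (1.87%), beside 5.00% of all elements and 1.20% of controls. These shares were not tested against each other. None was called in at least 3 groups of both cell types, beside 0.56% of all elements and none of the controls. Over all 10 groups, 237 asc elements (73.8%) were called at least once, beside 73.7% of all elements that are not scrambled and 63.1% of controls. In 3 or more groups 59 (18.4%) were called, against 13% of desc, 15.6% of unc, 10.8% of scrambled and 21.0% of all elements that are not scrambled. The largest number of calls was 5 of 10 groups, reached by 4 elements (1.25%). Of all elements that are not scrambled, 3.38% were called in 5 or more groups and 0.0467% in 8 or more. The 4 include 2176 and 2458, described above, and 1723, taken up with the age slopes. The other is 2448, which was singled out after its values were seen. It read 21.8 in NSC at E13 and between 0.285 and 1.11 in the later NSC groups, and in IPC 0.00478 at E13, then 7.54, 3.6, 6.29 and 7.32. Its calls were thus those of NSC at E13 and of 4 later IPC groups.

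The share of NSC calls that were also IPC calls at the same age differed between ages. At E13, 7 elements were called in both, which is 11.1% of the 63 called in NSC and 13.2% of the 53 called in IPC among the 298 with both values. At E15 the overlap was 11 elements, 26.8% of the NSC list and 23.4% of the IPC list. At E17 it was 9 elements, 33.3% of the 27 called in NSC and 16.4% of the 55 called in IPC. At E14 and E16 the overlap was 5 and 6 elements, 11.9% and 14.6% of the NSC lists and 15.6% and 14.0% of the IPC lists. Among all asc elements with both values, called in NSC or not, 17.8%, 10.3%, 15.7%, 15.0% and 17.7% were called in IPC from E13 to E17. Of all NSC calls on elements that are not scrambled, 23.1%, 17.3%, 19.2%, 18.9% and 20.4% were also IPC calls. As a share of NSC calls, the asc overlap was thus above both of these shares at E15 and E17. It was below both at E13 and E16, and between them at E14. Among scrambled controls, 11.5%, 14.4%, 11.8%, 16.9% and 10.0% of NSC calls were also IPC calls. The asc overlaps rest on 5 to 11 elements, and the differences were not tested.

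IPC and NSC were compared over the same 5 ages. No asc element had a limma adjusted p under 0.05 for IPC minus NSC (lowest 0.528), and neither had any other element (0%). At an unadjusted p under 0.05 in the limma fit, 12 of 301 asc elements (3.99%) were higher in IPC and 8 (2.66%) higher in NSC, beside 4.06% and 3.34% of all elements that are not scrambled. The median difference was 0.00 over asc elements and 0.08 over desc elements. Of the 272 complete asc elements, 5 (1.84%) had the IPC value above the NSC value at every one of the 5 ages, and 6 (2.21%) the reverse. Among scrambled controls the shares were 2.62% and 3.14%, and among all elements that are not scrambled 4.40% and 4.13%.

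Of the 5 elements higher in IPC at every age, 1506 had the largest mean difference, 1.64 on the log2 scale with a standard error of 0.71 (limma adjusted p = 0.655). Its ratio in IPC, in age order, was 19.5, 0.837, 2.21, 1.66 and 2.86, against 0.769, 0.703, 1.94, 0.913 and 0.378 in NSC. Element 2169 was above the controls in IPC at every age, at 5.24, 1.38, 2.43, 2.03 and 2.53, against 1.75, 1.03, 0.920, 0.840 and 2.32 in NSC. Its difference was smaller, 0.88 with a standard error of 0.49 (limma adjusted p = 0.722). Element 2262 stood at 1.44, 2.10, 2.06, 1.87 and 3.44 in IPC and 1.29, 1.70, 0.445, 0.615 and 1.11 in NSC. These last 2 elements had no single group that set their level in IPC.

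Of the 6 elements higher in NSC at every age, 2292 had the largest difference, -2.06 with a standard error of 1.03 (limma adjusted p = 0.699). In age order it read 28.7, 0.563, 0.604, 2.05 and 6.18 in NSC, against 3.14, 0.441, 0.258, 0.182 and 0.783 in IPC. Element 2341 had the lowest adjusted p of an asc element for this contrast (0.528), with a difference of -1.91 and a standard error of 0.55. It read 8.20, 1.80, 3.88, 0.717 and 1.51 in NSC and 0.821, 0.593, 0.311, 0.353 and 0.898 in IPC, so it was under the scrambled median in IPC at every age. Element 2451 read 34.4 and 4.49 in NSC at E13 and E14 and under 1 in the later NSC groups.

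Age was read as the slope per day over E13 to E17. No asc element had a limma adjusted p under 0.05 for the slope in NSC (lowest 0.678), in IPC (0.275) or for their difference (0.693). Over all elements that are not scrambled none passed in NSC (0%), 1 in IPC (0.00965%) and none for the difference (0%). At an unadjusted p under 0.05 in the limma fit, 8 asc elements (2.66%) had an upward slope in NSC and 18 (5.98%) a downward one, beside 3.77% and 3.34% of all elements and 2.95% and 4.28% of scrambled controls. In IPC the upward slopes were 10 (3.32%) and the downward ones 11 (3.65%), beside 3.44% and 3.78%. For the slope in IPC minus that in NSC, 11 (3.65%) were higher and 11 (3.65%) lower, beside 2.98% and 3.44%.

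The median slope over the asc elements was slightly negative in both cell types. It was -0.04 per day in NSC on the log2 scale over 301 asc elements, against 0.06 over desc, 0.03 over unc and 0.03 over scrambled elements. In IPC it was -0.03, against 0.03, 0.02 and 0.01. The sign is the opposite of the word ascending, though what the tag refers to is not known here. In NSC the medians by age looked more like a step than a line. The median log2 activity of asc elements minus that of the controls was 0.11 at E13 and 0.11 at E14, then -0.15 at E15, -0.16 at E16 and -0.10 at E17. In IPC it was between -0.08 and -0.03 from E13 to E16 and -0.25 at E17. The median IPC slope of asc elements minus that of the controls was -0.034, and -0.063 without the E17 groups. The medians by age thus fell mainly at E17, while the difference of slopes was negative with and without it. Why these summaries differ was not tested.

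The desc elements did not share this pattern. Their median minus that of the controls in NSC was -0.13 at E13 and between -0.01 and 0.04 from E14 to E17, and in IPC it went from 0.00 at E13 to 0.07 at E17. The median NSC slope of asc elements minus that of desc elements was -0.100, and -0.057 without the E13 groups. Against unc elements it was -0.073, and -0.029 without E13. Against scrambled controls it was -0.076, and -0.048 without E13. Without E16, the difference against unc elements was -0.040. The sign held in all of these, and NSC at E13 had the widest scatter of the 10 groups.

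**Figure D5:**
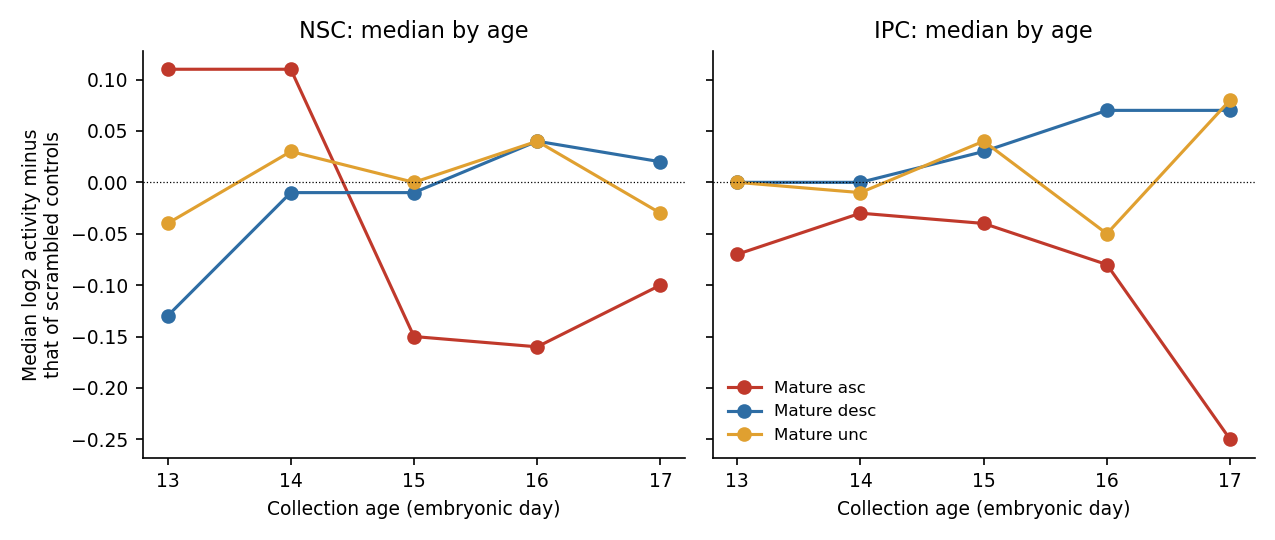
Median log2 activity minus that of the scrambled controls, by collection age, for Mature asc, desc and unc elements in NSC (left) and IPC (right). Each point is 1 difference of medians over pooled values, with no error bar since the values combine the biological samples. The asc line goes from 0.11 at E14 to -0.15 at E15 in NSC and ends at -0.25 at E17 in IPC.

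Counted by element, 38 of 272 complete asc elements (14.0%) had both E16 and E17 above both E13 and E14 in NSC, and 44 (16.2%) had both below. For desc elements the shares were 20.0% and 14.1%, for unc elements 15.4% and 15.9%, and for scrambled controls 17.7% and 15.4%. In IPC 38 asc elements (14.0%) had both late ages above and 51 (18.8%) both below, against 16.2% and 16.9% of desc, 16.6% and 17.4% of unc and 18.3% and 16% of scrambled elements. Over all elements that are not scrambled, 19.8% had both late ages above and 14.1% both below in NSC, and 19.2% and 15.9% in IPC. The asc label thus had the smallest share of late-high elements of the 3 labels in both cell types, in NSC next to unc (14.0% against 15.4%). No test was made of these differences.

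Of the elements with both late ages below both early ones in NSC, 1210 had the steepest slope. It read 81.2 at E13 and then 2.31, 0.562, 0.307 and 0.393, a slope of -1.72 per day with a standard error of 0.39 (limma adjusted p = 0.678). Its IPC ratios, between 0.398 and 1.75, had a slope of 0.05. Element 2451 followed with a slope of -1.40 in NSC and element 2540, which read 16.3, 5.96, 1.43, 1.79 and 0.274, with -1.25. In each of these 3 the E13 value in NSC was the highest of that cell type, in the group where the scatter of controls was also widest.

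Among elements with both late ages above the early ones in NSC, 2477 was the steepest, at 0.172, 0.627, 0.475, 7.20 and 2.36, a slope of 0.98 with a standard error of 0.42 (limma adjusted p = 0.678). Element 2053 had a slope of 0.97 and read 15.0 at E16. Element 2647 had a slope of 0.88, which rested on a ratio of 158 at E16 beside 1.88 at E17. The values at E17 were thus lower than those at E16 in all 3.

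Among elements with both late ages above both early ones in IPC, 2186 had the steepest slope. It read 0.0134 at E13 and then 0.641, 1.79, 1.27 and 3.38, a slope of 1.10 with a standard error of 0.40 (limma adjusted p = 0.595). Element 1723 read 0.224, 1.49, 3.0, 2.83 and 5.75 in IPC, and in NSC 1.07 and 0.248 at E13 and E14 beside 2.51 and 4.78 at E16 and E17. Its slopes were 0.94 in IPC and 0.71 in NSC (limma adjusted p = 0.580 and 0.678), and it was 1 of the 4 elements that the authors' adjusted p called in 5 groups. Element 2194 had a slope of 0.98 in IPC but -0.86 in NSC.

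Among elements with both late ages under both early ones in IPC, 2521 had the steepest slope. It read 54.0 at E13 and then 1.98, 1.90, 0.665 and 0.813, a slope of -1.30 with a standard error of 0.36 (limma adjusted p = 0.561). Element 2429 read 3.50, 1.34, 0.230, 0.148 and 0.0626, lower at each age than at the one before, with a slope of -1.13. Element 1628 had a slope of -1.10 but read 13.7, 11.9, 0.900, 0.0553 and 2.43, with the last age above the scrambled median again.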

How the data were processed

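Reporter DNA and RNA were measured in 48 libraries of 24 biological samples. Per the submitters' processing notes, cutadapt and the mouse build mm10 were used, and the counting, filters and activity tool are not stated there or in the labels. The authors deposited for each element and group an activity statistic, a MAD score and an adjusted p-value of that score. The scale of the statistic is not stated, and it is treated here as linear. The MAD score is the distance from the scrambled median in units of the controls' scaled median absolute deviation. Depth per sample is unknown.

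Ratios are each statistic over the scrambled median of the same group, and log2 values are log2(ratio + 0.1) minus the scrambled mean. limma (version 3.58.1 in R 4.3.3) was fitted to all elements with at least 4 of 5 ages per cell type, with a mean and a line over age per cell type. The fit was run first on simulated data with large planted effects. That run does not show whether small effects could be found. The scripts otherwise used Python 3.11.15. Differences between shares of elements were not tested, since elements are not replicates of a condition. The limma p-values measure scatter between ages, not between animals.

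Elements were named by rule: the 10 highest and 5 lowest means among complete elements, the largest differences between cell types with 1 sign at all 5 ages (3 in each direction), 3 slopes per direction and cell type, the steepest with both late ages beyond both early ones, and any called in 8 or more groups. The members, sets and rules were chosen with earlier results of these data known. Alternatives tried were other pseudocounts (0.5 and 0.02), the MAD score, complete elements only, each age left out, age as a block, late minus early means, element means in place of medians, and other call rules.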

Additional observations from a re-analysis of the deposited data

How the results depend on the processing

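No paired analysis was possible because the deposited values combine the biological samples of a group, so no column carries a replicate number. Cell types could be paired by age, and with age as a block the calls for IPC minus NSC stayed at 0. For the same reason no replicate could be left out, and each age was left out instead. The number of asc elements called by limma was 0 for each of the 6 contrasts in all 58 alternatives. At an unadjusted p under 0.05 in these fits, the lowest number was 9 of 301, for IPC minus NSC with the MAD score. The highest was 47 of 302, for the difference of slopes without E17. The shares over all elements and controls at that threshold were not computed for the alternatives, so these numbers are not read further. Over all elements that are not scrambled, the 112 calls for the IPC mean became 0 with the MAD score or without E13, E14 or E15, 65 without E16 and 28 without E17. Of 188 alternative differences of medians, 178 stayed within a limit or, on another scale (MAD score, late minus early), kept their sign or stayed within it. For means and IPC minus NSC, the limit was the SD over ages of the difference of medians. For slopes it was the standard error of the slope of that difference over age. The sign could change within the limit, as for the NSC mean of asc minus desc without E13 (-0.043, from 0.028). With the authors' MAD score, the asc median minus the scrambled median became 0.176 for the NSC mean and 0.203 for the IPC mean, in place of -0.004 and -0.032 on the log2 scale. Without E13 the NSC slope of asc minus desc was -0.057 (from -0.100), that of asc minus unc -0.029 (from -0.073), and the difference of slopes of asc minus desc 0.017 (from 0.088). Without E16 the difference of slopes was 0.025 against desc and -0.031 against unc (from 0.040), and the NSC slope of asc minus unc -0.040 (from -0.073). Without E17 the IPC slope of asc minus scrambled was -0.063 (from -0.034). The IPC slope of asc minus desc was -0.028 with a pseudocount of 0.5 and -0.020 with means over elements (from -0.052). The cause was not tested in any of these. Repeated calls follow their rule by construction. In NSC, 9 elements became 3 at a threshold of 0.01 and 0 above the limit that 2.5% of controls exceed. They became 53 at 2 or more NSC groups (16.5%, all elements 17.4%) and 0 at 4 or more (all elements 0.859%). In IPC, 6 became 12 at a threshold of 0.1 and 0 above that limit. They became 50 at 2 or more IPC groups (15.6%, all elements 19.0%) and 2 at 4 or more (0.623%, all elements 1.44%). Shares over all elements were not computed for the other thresholds or for the limit, so those counts are not read as a trait of asc elements. Single values have no error of their own here.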
